A study of Homo sapiens with 32 samples.

Results

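A485 at 1 uM was set against dCBP and IHK-44 in RH4, a cell line established from human alveolar rhabdomyosarcoma, by RNA-seq of total RNA. The comparison took 10 of the 32 samples of the series: the 2 libraries of A485 at 1 uM (2 h and 6 h of treatment) and the 8 libraries of dCBP and IHK-44 (each at 1 uM and 100 nM, at 2 h and 6 h). The series describes its compounds as CBP/p300 inhibitors or degraders, and A485 is known as an inhibitor of the catalytic acetyltransferase site of CBP and p300. The labels do not say which mode dCBP and IHK-44 have, and both are called here by their names. The 4 control libraries were DMSO, the vehicle, and NT, an abbreviation left unexplained by the labels, each at 2 h and 6 h. All groups share the RH4 line, its culture medium and plating on the day before treatment. Every condition had 1 library, so the doses, times and compounds within an arm stand in for replicates and the spread of the tests holds their differences. Nothing in the labels says that any pair of libraries came from separate cultures, so p-values measure only the spread between these libraries.

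CBP (gene CREBBP) and p300 (gene EP300) are paired acetyltransferases that acetylate histones at enhancers and promoters and serve as scaffolds for transcription factors. A catalytic inhibitor blocks the acetyltransferase reaction and leaves the protein in place, whereas a degrader removes the protein with all of its domains. Alveolar rhabdomyosarcoma is a tumour of the skeletal muscle lineage that carries a PAX3-FOXO1 or PAX7-FOXO1 fusion, and its core regulators include PAX3-FOXO1, MYOD1, MYOG and MYCN. Clustered histone genes encode the bulk histones H1, H2A, H2B, H3 and H4 that package newly made DNA. Their mRNAs are short, end in a stem-loop in place of a poly(A) tail, and are made mainly in S phase.

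The 10 libraries held 13466631 to 16799327 expected counts in 18980 coding genes. The muscle lineage label was borne out by 10 of 11 rhabdomyosarcoma markers that reached 1 CPM (coding reads scaled to a common total per library) in the A485 libraries, with CDH3 below it. Their summed level was 2583 and 3506 CPM in the A485 libraries, 1996 to 3778 CPM with dCBP or IHK-44 and 4274 to 4638 CPM in the controls. Of 15 markers of other cell types, 5 reached 1 CPM in the A485 libraries: RBFOX3, COL1A1, DCN, PDGFRA and PDGFRB. The same 5 did so in the controls, and these and VWF did with dCBP or IHK-44. PTPRC, CD3E, EPCAM, CDH1 and KRT5 were at 0 in both A485 libraries, and EPCAM and KRT5 were at 0 in all 14 libraries of these groups. The summed level of those 15 markers was 38.7 and 77.4 CPM with A485, 33.8 to 81.1 CPM with dCBP or IHK-44 and 69.8 to 88.4 CPM in the controls. In bulk RNA, fewer cells of a type and less RNA per cell cannot be told apart.

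Relative to dCBP and IHK-44, and on the CPM scale, A485 at 1 uM gave lower levels of clustered histone mRNAs and of a few other short mRNAs. The test was edgeR's quasi-likelihood test on the 10 libraries with time as a covariate, and calls needed a Benjamini-Hochberg adjusted p under 0.05. It called 30 of 13023 genes (0.23% of those tested). All 30 were lower with A485 and 0 were higher. At an unadjusted p under 0.05 the same test held 479 genes higher and 622 lower. Among the 30 genes, 22 were clustered histone genes, 5 were cytosolic ribosomal protein genes, and the others were ATP5MF, NDUFAB1 and SNRPG. In all 30 the A485 library lay below each of the 4 dCBP and IHK-44 libraries of the same time, at 2 h and at 6 h. Such separation at both times was found downward in 897 genes (6.89% of those tested) and upward in 643 genes (4.94%).

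The promoters of 3 called histone genes and of MYCN are shown because the histone genes share short elements that most other promoters lack, and because MYCN stands for the group of genes described further on in which A485 was the higher arm at 6 h. Each run is the 250 bases before the RefSeq start site, on the strand of the gene, from the GRCh38.p14 table. Capitals mark the letters of the octamer ATGCAAAT, the CCAAT box and the TATA box TATAAA, each searched on both strands at any position. H4C11 lies at chr6:27823842-27824091 (+), H2BC17 at chr6:27893175-27893424 (+), H2AC6 at chr6:26123922-26124171 (+) and MYCN at chr2:15940300-15940549 (+).
H4C11: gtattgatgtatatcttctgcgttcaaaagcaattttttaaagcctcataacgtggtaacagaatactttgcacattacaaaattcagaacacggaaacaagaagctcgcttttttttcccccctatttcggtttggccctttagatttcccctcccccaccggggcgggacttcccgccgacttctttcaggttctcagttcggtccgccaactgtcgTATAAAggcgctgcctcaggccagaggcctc
H2BC17: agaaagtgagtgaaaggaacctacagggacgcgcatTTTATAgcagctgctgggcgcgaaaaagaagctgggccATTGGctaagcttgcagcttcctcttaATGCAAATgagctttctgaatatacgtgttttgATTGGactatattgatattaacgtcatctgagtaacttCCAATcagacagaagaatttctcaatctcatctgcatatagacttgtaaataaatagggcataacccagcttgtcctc
H2AC6: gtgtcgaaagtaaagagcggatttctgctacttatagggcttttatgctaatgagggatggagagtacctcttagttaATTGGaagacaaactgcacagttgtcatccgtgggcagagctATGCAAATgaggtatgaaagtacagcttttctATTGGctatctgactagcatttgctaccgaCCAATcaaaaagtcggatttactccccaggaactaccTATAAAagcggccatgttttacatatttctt
MYCN: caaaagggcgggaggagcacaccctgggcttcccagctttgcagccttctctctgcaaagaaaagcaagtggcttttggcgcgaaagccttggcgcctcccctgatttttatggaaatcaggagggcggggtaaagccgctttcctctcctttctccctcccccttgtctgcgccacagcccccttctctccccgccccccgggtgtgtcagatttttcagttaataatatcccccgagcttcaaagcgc

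H2BC17 and H2AC6 each held 1 octamer and 3 CCAAT boxes in this window, H4C11 held only TATAAA, and MYCN held none of these letters. TATAAA stood at -31 from the start in H4C11 and H2AC6, whereas in H2BC17 the match was on the other strand at -214. The shares below count any match in the window. In the 300-base promoters of the table (250 bases before to 50 after the start), 20 of the 22 called histone genes and 10612 of the 13023 tested genes were matched by symbol. The octamer was present in 45% of the called histone promoters and in 1.498% of all those matched. The CCAAT box was present in 75% against 36.9%, and TATAAA in 70% against 5.89%. The median GC content was 43.8% in the called histone promoters and 65.3% over all matched genes. These are properties of the histone gene family: all 43 matched histone genes among the 47 tested gave an octamer share of 41.9%. Of the 128 genes 2-fold higher with A485 at 6 h, described further on, 99 were matched. TATAAA was present in 18.2% of these 99 promoters, the CCAAT box in 39.4% and the octamer in 2.02%.

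H4C3, one of the copies that encode histone H4, was at 135 CPM (2 h) and 184 CPM (6 h) with A485. In the 8 dCBP and IHK-44 libraries it ranged from 253 CPM over a median of 290 CPM to 332 CPM, and in the controls from 147 to 178 CPM. A485 lay just below the controls at 2 h and just above them at 6 h, and all 8 others lay above both. The fitted difference was −0.86 on the log2 scale (SE 0.09, adjusted p = 0.0023 by edgeR). H4C11 was at 131 and 183 CPM with A485 and at 246 to 343 CPM with the others, a log2 difference of −0.89 (SE 0.10, adjusted p = 0.0023 by edgeR). H4C14 and H4C15 differed by −0.85 and −0.84 on the log2 scale. Among H2A and H2B genes, H2AC6 was at 187 and 233 CPM with A485 and at 270 to 421 CPM with the others, a log2 difference of −0.68 (SE 0.09, edgeR adjusted p = 0.0067). H2BC5 was at 137 and 215 CPM with A485 and at 239 to 338 CPM with the others, a log2 difference of −0.79 (SE 0.10, edgeR adjusted p = 0.0035).

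The called histone genes covered all 5 classes. The linker histone genes H1-2 and H1-4 differed by −0.42 and −0.58 on the log2 scale, and the H3 genes H3C4, H3C11, H3C13 and H3C15 by −0.46 to −0.72. Many of these copies encode the same protein and differ by few bases, so the division of reads between single copies is uncertain. Sums over a class do not depend on that division within the class. Summed H4 mRNA was 1385 CPM (2 h) and 1957 CPM (6 h) with A485, 2313 to 3846 CPM over the 8 others and 1400 to 1835 CPM in the controls. Summed H3 mRNA was 1951 and 2753 CPM with A485, 2781 to 4199 CPM with the others and 2062 to 2607 CPM in the controls. Summed H2A mRNA was 2315 and 3061 CPM with A485, 3292 to 4365 CPM with the others and 2306 to 2773 CPM in the controls. Summed H2B mRNA was 2096 and 2852 CPM with A485, 2969 to 4097 CPM with the others and 2097 to 2506 CPM in the controls. Summed H1 mRNA was 1272 and 1695 CPM with A485, 1703 to 2347 CPM with the others and 1434 to 1833 CPM in the controls. Each class was thus lower in both A485 libraries than in any of the 8 others. At 6 h A485 lay above both controls for H2A, H2B, H3 and H4 and below both for H1.

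**Figure D1:**
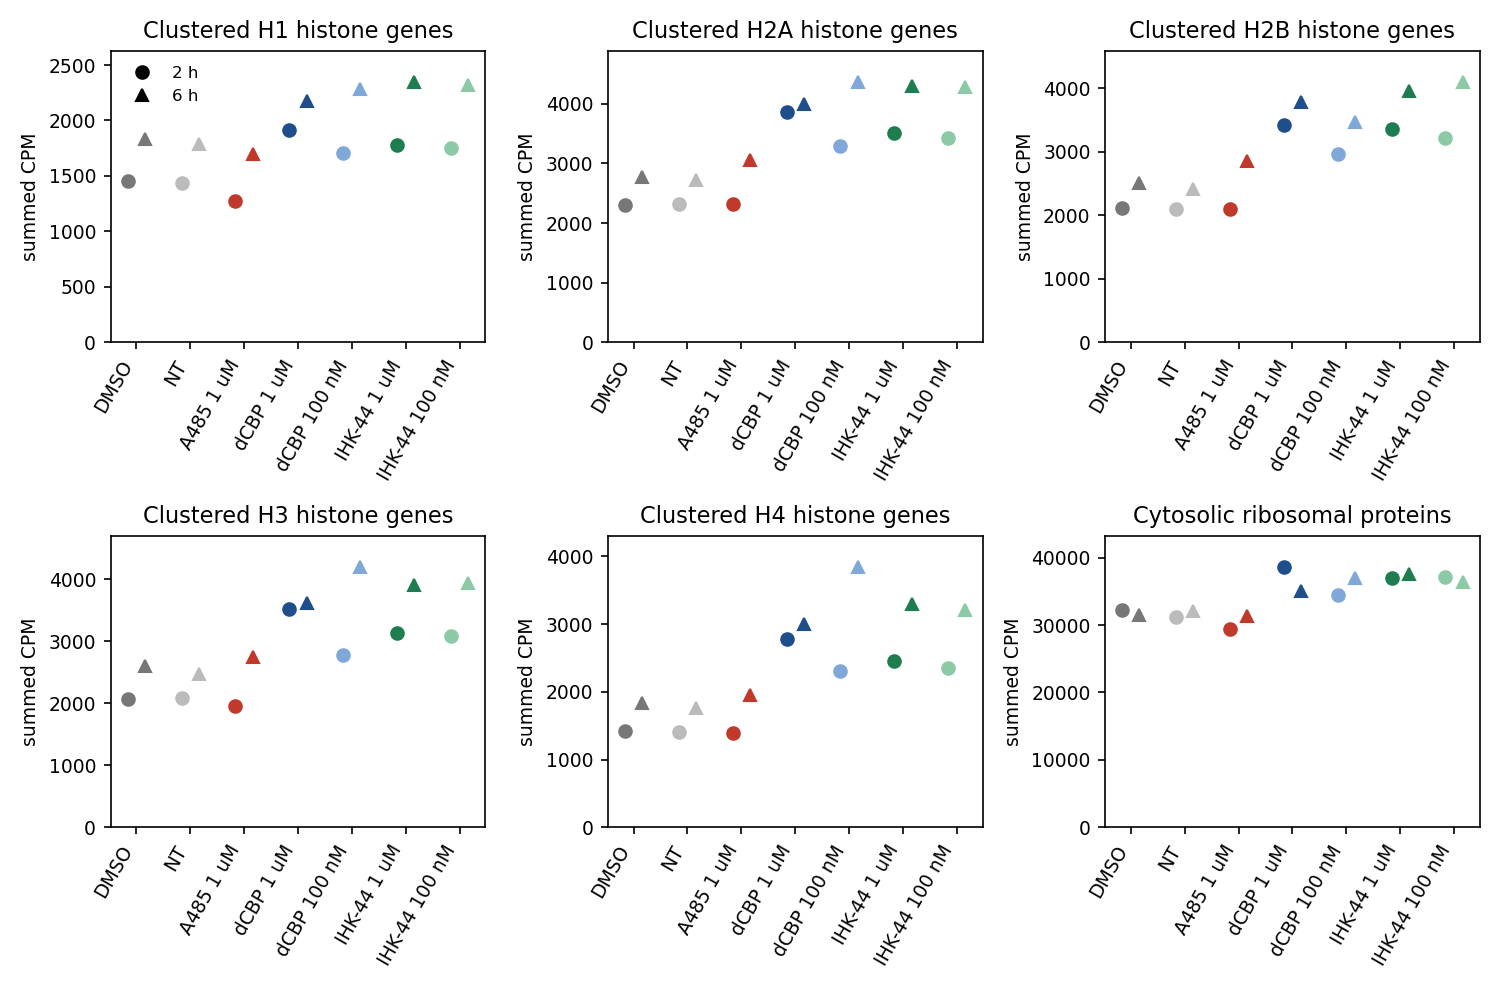
Summed CPM of the 5 clustered histone classes and of the cytosolic ribosomal protein genes (y axes) in each library (x axis: treatment; circles 2 h, triangles 6 h; 1 library per point). At each time the 4 dCBP and IHK-44 libraries sit above A485, DMSO and NT, for H4 at 2313 to 3846 CPM against 1385 and 1957 CPM with A485.

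Over the whole family, 46 of the 47 clustered histone genes tested had a log2 difference below 0, with a median of −0.54 beside −0.00 over all genes tested, a direction that flips on the TPM scale as given further on. All 18 tested members of the list of replication-dependent histones lay below 0, with a median of −0.50. Of these, 11 were called lower and 0 higher, beside 0.23% of all genes tested. Histone variants encoded by genes outside the clusters, such as H2AZ1 and H3-3A, gave 0 calls among 11 tested and a median of −0.14. Mitotic genes, which follow S phase in the cell cycle, gave 0 calls among 20 tested, with a median of −0.03. UBE2C, an enzyme that serves the anaphase-promoting complex, was at 196 and 242 CPM with A485 and at 221 to 295 CPM with the others.

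Ribosomal protein genes gave the next largest share of the calls. RPS21, a small-subunit protein, differed by −0.67 on the log2 scale (SE 0.11, edgeR adjusted p = 0.024), RPS15 by −0.51, RPS15A by −0.53, RPL27A by −0.41 and RPL35 by −0.48. All 77 cytosolic ribosomal protein genes tested had a difference below 0, with a median of −0.29, and 5 were called, whereas on the TPM scale at 1 uM 0 of 77 lay below 0 (medians 0.44 at 2 h and 0.48 at 6 h). Against the median of all genes on that scale, 77 (2 h) and 62 (6 h) of the 77 lay below. Their summed level was 29450 and 31360 CPM with A485, 34410 to 38640 CPM with dCBP or IHK-44 and 31150 to 32200 CPM in the controls. ATP5MF, a subunit of the mitochondrial ATP synthase, was at 17.8 and 20.9 CPM with A485, at 28.9 to 36.3 CPM with the others and at 19.6 to 20.6 CPM in the controls. Its log2 difference was −0.71 (SE 0.11, edgeR adjusted p = 0.015). NDUFAB1, the mitochondrial acyl carrier protein, differed by −0.64 and SNRPG, a core protein of spliceosomal particles, by −0.51. Respiratory chain genes were grouped by a pattern of gene names that did not take in NDUFAB1. Of 81 such genes tested, ATP5MF was the 1 called, 78 lay below 0 and the median was −0.24. On the TPM scale, by contrast, the medians were 0.55 (2 h) and 0.46 (6 h). Proteasome subunits gave 0 calls among 26 tested, with 23 below 0 and a median of −0.14, and TPM medians of 0.68 (2 h) and 0.59 (6 h). The groupings of clustered histone, separately located histone, ribosomal protein and respiratory chain genes were made after the calls were seen.

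The differences followed transcript length. The median length of the 30 called genes was 492 bases, beside 3315 bases over all genes tested, and 28 of the 30 (93.3%) were under 1500 bases, beside 12.2% of all. Among genes under 750 bases the median log2 difference was −0.34 over 284 genes, of which 27 were called. From 750 to 1500 bases it was −0.15, from 1500 to 3000 bases −0.05, from 3000 to 6000 bases 0.03 and above 6000 bases 0.12. Clustered histone genes lay below other genes of like length: under 750 bases their median was −0.56 (43 genes) and that of the 241 others was −0.31. With an offset that removed each library's trend with length, a setting chosen after the data were seen, edgeR called 0 genes (555 at an unadjusted p under 0.05). The median of the clustered histone genes was then −0.20 and that of the ribosomal protein genes −0.06. With that offset H4C3 differed by −0.47 and H4C11 by −0.48 on the log2 scale.

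**Figure D2:**
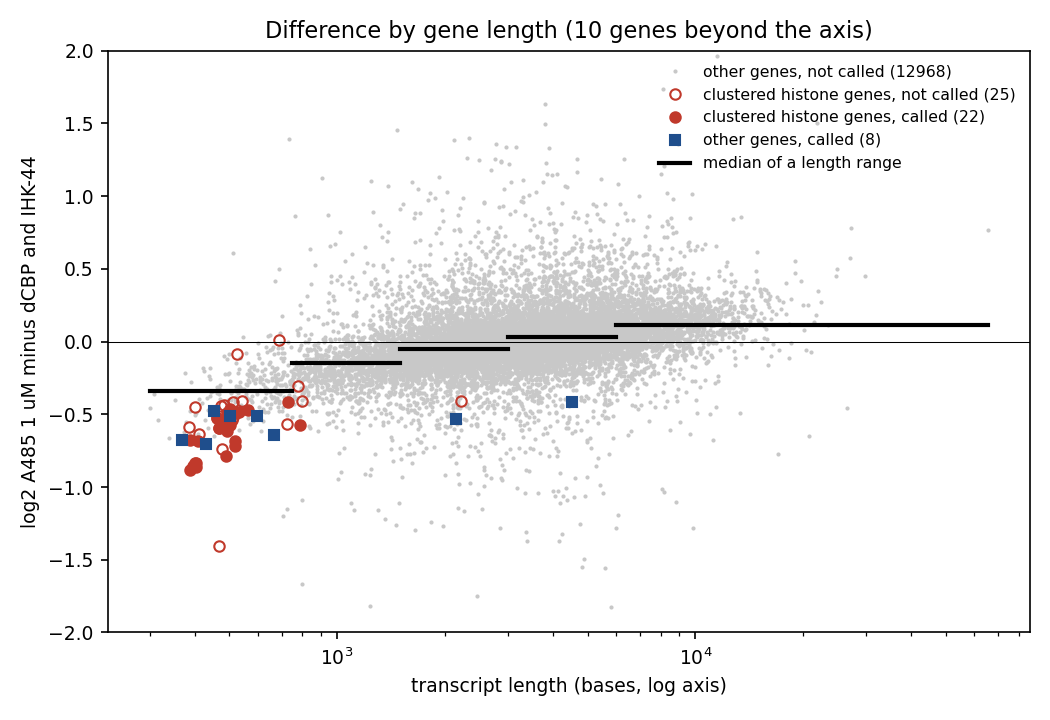
Log2 difference between A485 at 1 uM and the 8 dCBP and IHK-44 libraries (y axis, edgeR) against transcript length in bases (x axis, log scale), 1 point per tested gene, with bars at the median of each length range. The medians run from −0.34 under 750 bases to 0.12 above 6000 bases, and the 22 called histone genes lie below the median of their range.

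Reads assigned outside coding genes took a share that moved with the same split. It was 4.64% and 5.45% in the A485 libraries, 8.20% to 11.3% in the 8 dCBP and IHK-44 libraries and 5.63% to 6.43% in the controls. The A485 libraries were 4.12 percentage points lower, with an exact permutation test within time giving a two-sided p = 0.04, the smallest that 25 arrangements allow. Against dCBP and IHK-44 at 1 uM alone the difference was −3.89 percentage points, with an exact p = 0.111, the smallest that 9 arrangements allow. The part of the noncoding share in the histone and ribosomal protein differences was not tested. Selection for poly(A) tails or removal of ribosomal RNA bears on both the noncoding share and the histone mRNAs, which lack a tail; which was used is not given in the sources used here.

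**Figure D3:**
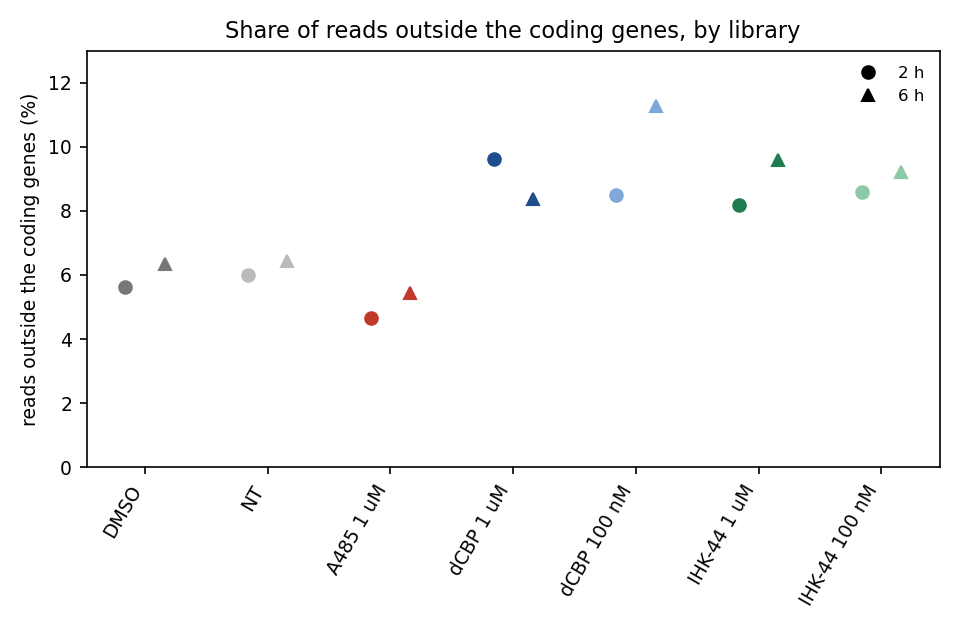
Percent of reads outside coding genes (y axis) by treatment (x axis; circles 2 h, triangles 6 h; 1 library per point). The A485 libraries, at 4.64% and 5.45%, lie below all 8 dCBP and IHK-44 libraries, which lie at 8.20% or above.

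Set against the controls, which the comparison did not use, the called genes differed in the dCBP and IHK-44 arm on the CPM scale. The median log2(CPM + 1) difference from DMSO and NT over the 30 genes was 0.62 (0.27 to 0.98) for dCBP and IHK-44 and 0.02 (−0.18 to 0.15) for A485. In all 30 genes each dCBP and IHK-44 library lay above both controls of the same time. The 30 had been selected as higher in those libraries than with A485, and the same share over all genes was not counted. A485 lay below both controls at both times in 6 of the 30. On the deposited TPM scale, which also counts RNAs outside the coding genes, the median of all genes was 0.77 log2 higher with A485 at 2 h and 0.57 higher at 6 h at the matched 1 uM dose. There the clustered histone genes flipped to a median of 0.16 (2 h) and 0.27 (6 h) above dCBP and IHK-44. Of 45 described, 45 and 42 lay below the median of all genes, which adds no support because the group was formed after the calls. Against the controls on the TPM scale, the histone median was 0.24 (2 h) and 0.42 (6 h) with A485. With dCBP and IHK-44 it was 0.12 and 0.13, so A485 was there the arm farther from the controls. The medians of all genes were 0.35 and 0.42 with A485 and −0.38 and −0.13 with the others. The files hold no spike-in for RNA, so each direction is relative to the other RNAs counted.

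The count of calls rested on single libraries. Without the A485 2 h library edgeR called 73 genes (63 higher and 10 lower), and without the A485 6 h library 2. Leaving out dCBP 100 nM at 6 h gave 70, dCBP 1 uM at 2 h 17, and the 4 IHK-44 libraries 13 to 16, while without dCBP 1 uM at 6 h or dCBP 100 nM at 2 h the counts were 28 and 32. DESeq2 called 109 genes (10 higher and 99 lower), which held all 30. With dCBP alone as the other arm edgeR called 0 genes (604 at an unadjusted p under 0.05), and with IHK-44 alone 160 (50 higher and 110 lower).

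At 6 h a different set of genes stood apart at the matched dose: many genes lay below the controls in every arm but less far below with A485, among them MYC, MYCN, MYOD1 and FOXO1. Among 12188 genes with a mean of at least 1 CPM, 128 (1.05%) were at least 2-fold higher on the log2(CPM + 1) scale in A485 than in both dCBP and IHK-44 at 1 uM, and 8 (0.0656%) were 2-fold lower. At 2 h the same counts were 1 (0.0082%) and 3 (0.0246%). These are single libraries set side by side, with no test. Of the 128 genes, 108 lay between the controls and the other compounds, 16 on the other side of the controls and 4 beyond the others. Their median difference from the controls at 6 h was −0.93 on the log2(CPM + 1) scale with A485 and −2.42 with dCBP and IHK-44. On the TPM scale 123 of the 128 lay above the median of all genes, which adds no support because the same libraries had selected them. At 6 h A485 at 1 uM was above dCBP at 100 nM in all 128 and above IHK-44 at 100 nM in 114. The genes had been selected for a high level in this A485 library, and the same share over all genes was not counted.

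**Figure D4:**
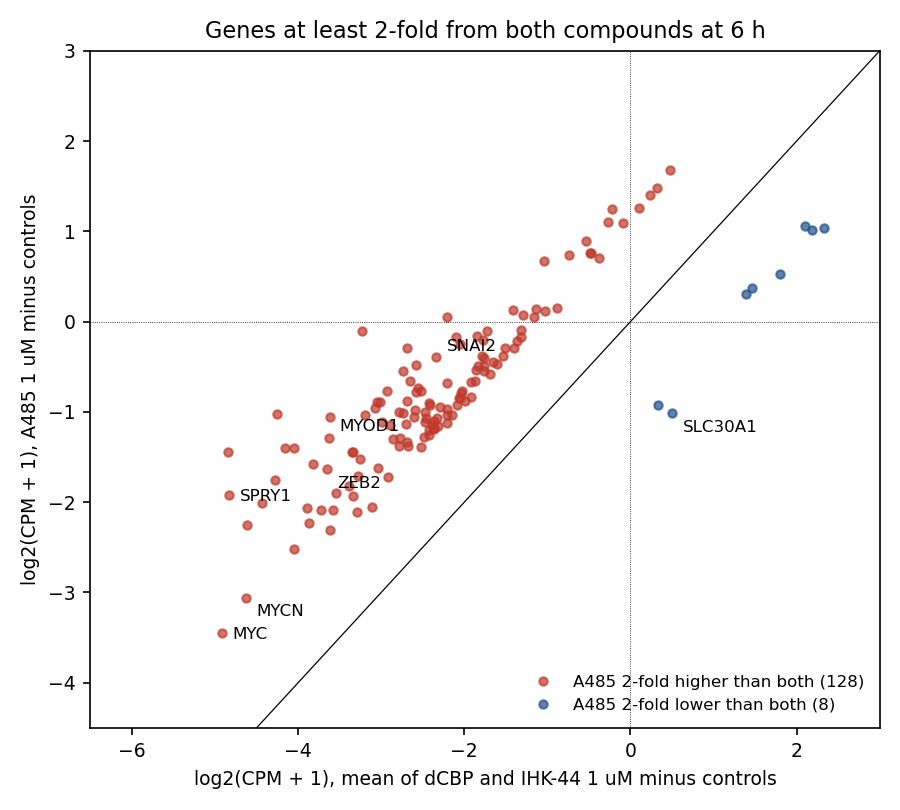
Genes at least 2-fold from both dCBP and IHK-44 at 1 uM and 6 h: difference from the mean of DMSO and NT on the log2(CPM + 1) scale with A485 (y axis) and with the mean of the other compounds (x axis), with the line of equality. Of the 128 higher genes, 108 lie between the controls (0) and the line, with medians of −0.93 (A485) and −2.42 (others).

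MYC, a transcription factor that drives growth, was at 67.6 and 73.3 CPM in the 6 h controls and at 5.54 CPM with A485. In the 4 dCBP and IHK-44 libraries at 6 h it was at 1.48, 2.05, 1.26 and 0.833 CPM. At 2 h A485 gave 5.76 CPM and the others 5.20 to 8.91 CPM, so A485 lay inside their range at 2 h and above it at 6 h. MYCN, the family member tied to this tumour, showed the same order: 73.2 and 70.0 CPM in the 6 h controls, 7.72 CPM with A485 and 1.02 to 3.33 CPM with the others. At 2 h MYCN was at 6.596 CPM with A485 and at 5.05 to 12.6 CPM with the others.

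Of 14 fusion partners and myogenic factors described, 7 were 2-fold higher than with both compounds at 1 uM and 6 h, beside 1.05% of all genes, and 0 were lower. All 14 were above both, beside 32.3% of all genes. MYOD1, the myogenic master regulator, was at 272 CPM with A485 at 6 h. Its levels were 101 and 27.2 CPM with dCBP and IHK-44 at 1 uM, at 136 and 270.1 CPM at 100 nM, and at 648 to 677 CPM in the controls. IHK-44 at 100 nM thus stood at the level of A485 at 1 uM. FOXO1, the 3' partner of the fusion, was at 74.0 CPM with A485, at 28.5 and 23.5 CPM with dCBP and IHK-44 at 1 uM, and at 179 to 186 CPM in the controls. At 100 nM FOXO1 was at 21.2 CPM with dCBP and at 73.9 CPM with IHK-44. Fusion and wild-type FOXO1 reads were not separated. SIX4, EYA1, TCF12 and ID3 were also among the 7.

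**Figure D5:**
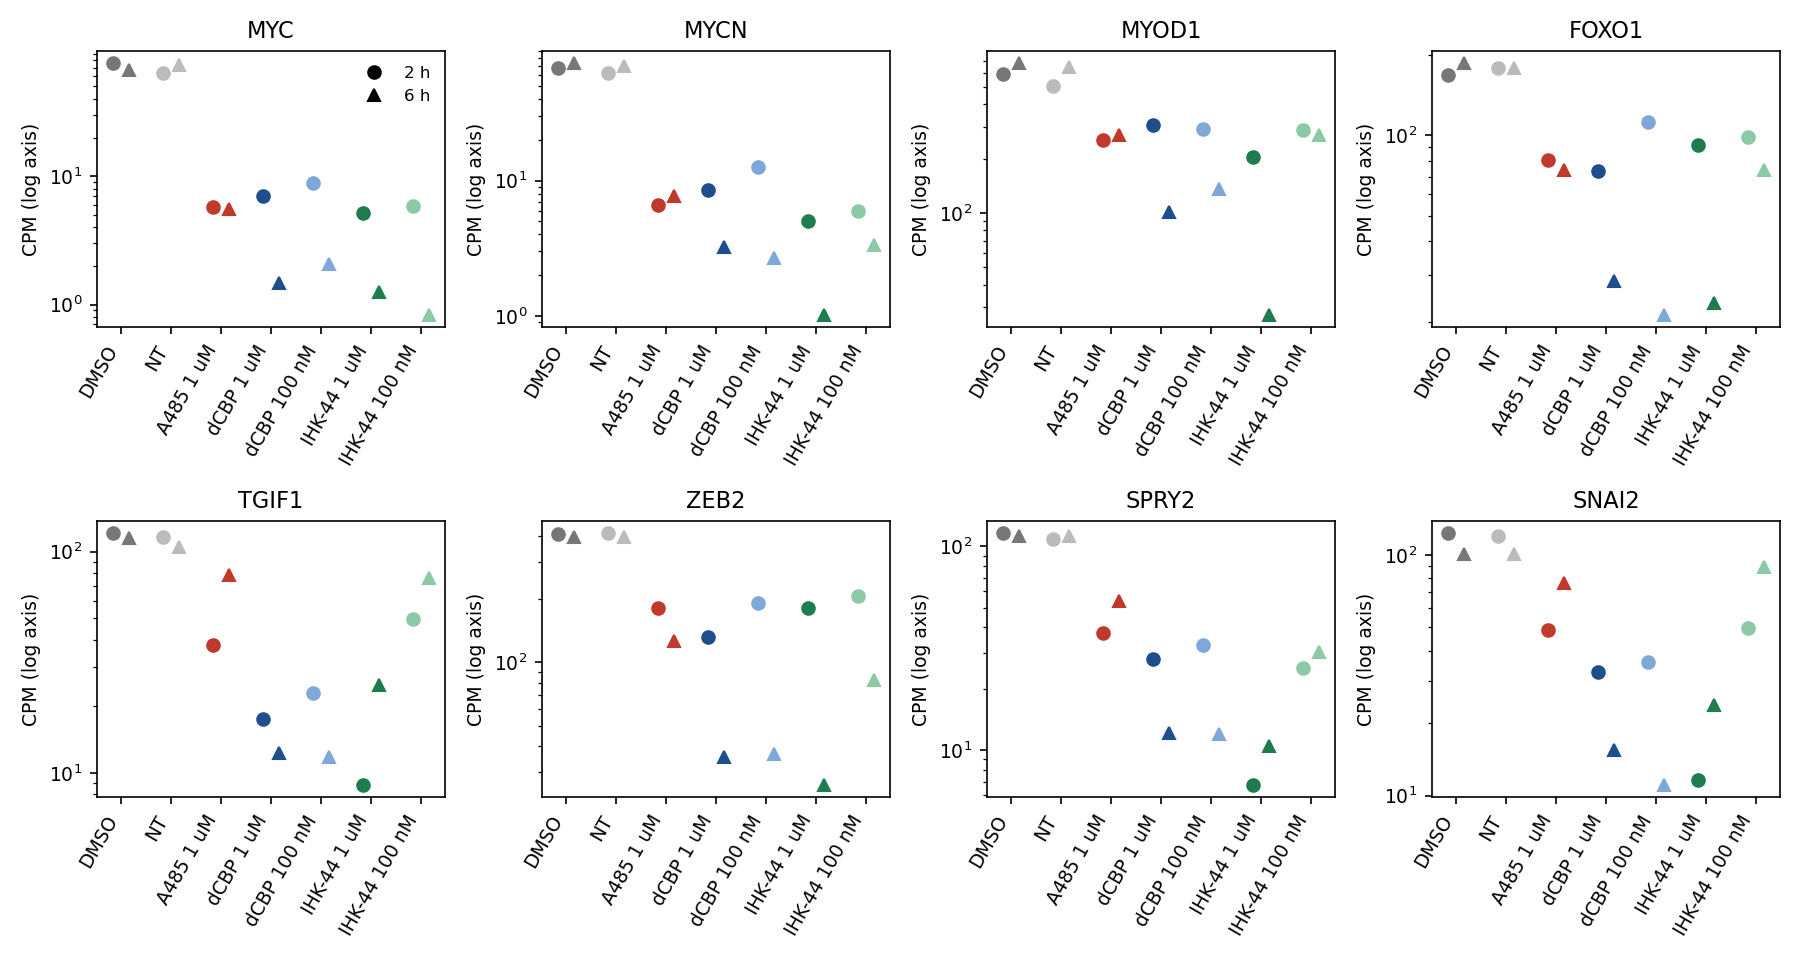
CPM (y axes, log scale) of 8 genes by treatment (x axis; circles 2 h, triangles 6 h; 1 library per point). For MYC the 6 h points of dCBP and IHK-44 lie at 0.833 to 2.05 CPM and that of A485 at 5.54 CPM, whereas the 2 h points lie together at 5.20 to 8.91 CPM.

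Mesenchymal transcription factors, known for their roles in cell migration, gave 4 of 10 members 2-fold higher at 6 h: SNAI2, ZEB2, FOXC2 and FOXF1. For this list and those below, the share over all genes described was 1.05%. FOXF1, ID3, MYOD1 and MYCN each belong to more than 1 list, so the lists are not separate counts. ZEB2 was at 127 CPM with A485, at 35.5 and 26.2 CPM with dCBP and IHK-44 at 1 uM and at 396 to 397 CPM in the controls. SNAI2 was at 76.7 CPM with A485, at 15.5 and 23.8 CPM with the others at 1 uM, but at 88.8 CPM with IHK-44 at 100 nM. Of 16 genes that report or damp ERK signalling, SPRY1, SPRY2 and PHLDA1 were 2-fold higher. SPRY2, an inhibitor of receptor tyrosine kinase signalling, was at 54.0 CPM with A485, at 12.2 and 10.5 CPM with the others at 1 uM and at 112 CPM in both controls. In the BMP list SMAD9, SMAD7, ID3 and NOG were 2-fold higher than both at 1 uM among 21 described. IHK-44 at 100 nM lay above A485 for NOG (19.4 against 7.47 CPM) and ID3 (92.2 against 89.3 CPM). SMAD9, a BMP signal transducer, was at 117 CPM with A485 at 6 h, within the 109 to 118 CPM of the controls, and at 56.6 and 44.5 CPM with the others at 1 uM. Of 21 PAX3-FOXO1 targets, MYCN, MYOD1, TFAP2B, FOXF1 and KCNN3 were 2-fold higher than both at 1 uM. With IHK-44 at 100 nM KCNN3 was at 131.9 CPM, above the 112.5 CPM of A485, and FOXF1 at 34.9 CPM, beside 38.2 CPM with A485. FGFR4, a receptor tyrosine kinase, was at 533 CPM with A485 and at 555 and 556 CPM with the others at 1 uM.

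Among the 8 genes 2-fold lower with A485 at 6 h, SLC30A1, a zinc exporter, had the highest level. It was at 35.2 CPM with A485, at 83.1 to 107 CPM in the 4 others and at 74.8 and 69.6 CPM in the controls. A485 at 2 h gave 86.5 CPM, beside 88.1 to 93.6 CPM with the others. A485 at 100 nM gave 29.2 CPM at 6 h, so both A485 doses lay below every other library of that time in these groups. H3C14, a clustered histone gene, was at 7.26 CPM with A485 and at 19.4 CPM with dCBP 1 uM, and ARHGAP44, EDA, KHK, NPY1R, RND1 and SGK3 were each at most 2.52 CPM with A485.

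The background of 1 library against 1 was read from the same genes. A485 and dCBP at 1 uM were 2-fold apart in 35 genes at 2 h (0.287%, 8 higher and 27 lower with A485) and 168 at 6 h (1.38%, 154 higher and 14 lower). A485 and IHK-44 were apart in 27 genes at 2 h (0.222%, 17 higher and 10 lower) and 244 at 6 h (2%, 221 higher and 23 lower). dCBP and IHK-44 were apart in 56 genes at 2 h (0.459%) and 26 at 6 h (0.213%), and NT and DMSO in 35 (0.287%) and 9 (0.0738%). At 6 h the A485 counts lay above both of these, whereas at 2 h they did not exceed those of NT against DMSO. On the TPM scale the split moved with the overall shift, to 2063 higher and 2 lower against dCBP at 2 h, 369 and 0 at 6 h, and 378 and 3, then 1198 and 0, against IHK-44. TGIF1, a homeobox repressor of TGF-beta signalling, was the 1 gene 2-fold higher than both at both times, at 37.8 and 78.6 CPM with A485. TGIF1 stood at 17.5 and 12.3 CPM with dCBP 1 uM, 8.84 and 25.02 CPM with IHK-44 1 uM and 105.5 to 121.2 CPM in the controls. IHK-44 at 100 nM, at 49.5 and 76.3 CPM, lay above A485 at 2 h and beside it at 6 h.

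A fit without the A485 2 h library tested the 6 h library against the others, with the remaining libraries giving the spread and the lone A485 library assumed to vary like them. edgeR called 63 genes higher (0.475% of 13263 tested) and 10 lower (0.0754%). The higher genes included MYC (log2 difference 2.01, SE 0.37, adjusted p = 0.030), SMAD9 (1.13, adjusted p = 0.030), RUNX1 (1.47, adjusted p = 0.022), the insulin signalling adaptor IRS1 (1.85, adjusted p = 0.030) and the cystine transporter SLC7A11 (1.67, adjusted p = 0.018). These were picked after their values were seen. MYCN, MYOD1, FOXO1, SPRY1, SPRY2, ZEB2 and SNAI2, described above at 6 h, were not called in this fit. Of the 63, 26 were among the 128, and in 62 all 4 dCBP and IHK-44 libraries at 6 h lay below both controls. A485 itself lay below both controls in 56. The genes called here and the 2-fold genes rest on the same A485 6 h library, so their overlap adds no support. The shares of all genes tested that lay below the controls were not counted. Their median length was 5582 bases, beside 3303 bases over the genes tested. Of the 10 lower genes, 8 were clustered histone genes, and the others were SLC30A1 and LRRC20.

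A change of the difference from 2 h to 6 h was not called for any gene: the interaction of arm and time gave 0 of 13298 (0%), with 784 at an unadjusted p under 0.05 (483 upward). DESeq2 called 29 (28 upward). Without IHK-44 100 nM at 6 h edgeR called 56 (55 upward), and without dCBP 100 nM at 6 h it called 3. Over both times together the panel of fusion, lineage and target genes gave 0 calls in the main comparison. The log2 differences were 0.92 for MYC (95% confidence interval 0.07 to 1.77, edgeR adjusted p = 0.57), 0.73 for MYCN (−0.20 to 1.65), 0.53 for MYOD1 (−0.54 to 1.60), 0.46 for FOXO1 (−0.36 to 1.28), 0.13 for PAX3 (−0.32 to 0.58), 0.04 for MYOG (−0.70 to 0.77), 0.18 for SOX8 (−0.65 to 1.00) and −0.09 for FGFR4 (−0.30 to 0.13). Without the A485 6 h library PAX3, FOXO1, MYOD1, MYOG, MYCN, MYC and SOX8 turned to the other sign, so their direction rested on that library.

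EP300 and CREBBP, the mRNAs of the targeted proteins, were not lost with any compound; mRNA levels do not check loss of the protein. EP300 was at 353 and 398 CPM with A485, at 270 to 349 CPM with the others and at 244 to 313 CPM in the controls. CREBBP was at 619 and 756 CPM with A485, at 518 to 659 CPM with the others and at 469 to 578 CPM in the controls. Both A485 libraries lay above the 4 others of the same time for each gene. The log2 differences were 0.28 (0.07 to 0.49) and 0.20 (0.05 to 0.35), with edgeR adjusted p = 0.49 for each, and were 0.17 and 0.06 with the length offset.

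The 3 pairs of compounds at 1 uM were compared with p-values adjusted over all genes and pairs together. edgeR called 0 of 13023 genes between A485 and dCBP (0%), 0 between A485 and IHK-44 (0%) and 0 between dCBP and IHK-44 (0%). Unadjusted p-values under 0.05 numbered 563, 771 and 173, and DESeq2 called 17, 19 and 1. Without dCBP 100 nM at 2 h edgeR called 21, 20 and 1, without the A485 2 h library 7, 7 and 1, and without dCBP 100 nM at 6 h 3, 3 and 0. H4C3 differed by −0.86 (−1.14 to −0.58) between A485 and dCBP, by −0.84 (−1.12 to −0.56) between A485 and IHK-44 and by 0.03 (−0.25 to 0.30) between dCBP and IHK-44. MYCN differed by 0.55 (−0.55 to 1.65), 1.60 (0.43 to 2.78) and 1.06 (−0.13 to 2.24) in the same order. SPRY2 differed by 1.27 (0.27 to 2.28), 2.43 (1.38 to 3.48) and 1.15 (0.08 to 2.22). No adjusted p passed, and the intervals for dCBP against IHK-44 leave room for differences of more than 2-fold in MYCN and SPRY2.

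A485 at 100 nM was also set against dCBP and IHK-44 at 100 nM. edgeR called 13 of 12836 genes (0.101%): 12 higher and 1 lower with A485. PLK2, a kinase of the p53 and stress response, was at 44.01 and 54.31 CPM with A485 100 nM, at 6.37 to 12.8 CPM with dCBP or IHK-44 100 nM and at 65.6 to 81.8 CPM in the controls. Its log2 difference was 2.34 (SE 0.26, edgeR adjusted p = 0.028). GAS1, a growth-arrest membrane protein, differed by 2.24 (SE 0.29, adjusted p = 0.038 by edgeR). JUN, CITED2, FLRT3, FOXA2, S1PR1, PHLDA1, DUSP6, TENT5A and SNAI1 were also called higher. H4C12, the lower call, was listed at 0 in both A485 100 nM libraries and at 6.999 to 12.06 CPM in the 4 others, and as a near-identical H4 copy it is given without a fold. MYC, at 37.4 and 43.7 CPM with A485 100 nM and 0.833 to 8.91 CPM with the others, differed by 3.68 (SE 0.52, edgeR adjusted p = 0.0505) and did not pass. A485 at this dose thus lay between the other compounds and the controls, which were at 63.4 to 75.6 CPM. The difference of 0.92 for A485 at 1 uM was taken against both doses of the other compounds. The difference between doses was not tested.

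Counts at 100 nM also rested on single libraries. edgeR called 1066 genes without A485 100 nM at 2 h, 7 without A485 100 nM at 6 h, 24 and 31 without dCBP 100 nM at 2 h and 6 h, and 2 and 0 without IHK-44 100 nM at 2 h and 6 h. DESeq2 called 274.

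The other lists, chosen for these cells, gave 0 calls in the main comparison. Median log2 differences above 0.1 were found for mesenchymal transcription factors (0.59, 11 tested), fusion partners and myogenic factors (0.33, 14 tested), genes of ERK feedback (0.26, 16 tested, 14 above 0), PAX3-FOXO1 targets (0.24, 22 tested), the BMP pathway (0.20, 22 tested), YAP and TEAD targets (0.13, 13 tested) and acetyltransferases (0.10, 9 tested). The remaining lists had medians between −0.10 and 0.10: bromodomain and elongation factors, the cereblon ligase, the MYC network, immediate early genes, Notch, p53-type growth brakes, the BCL2 family, G1 cyclins and CDK inhibitors, heat shock chaperones, the ATF4 response, cholesterol synthesis, ribosome biogenesis, sarcomere genes and HIF targets. HEXIM1, an inhibitor of the elongation kinase P-TEFb, was at 76.4 and 80.1 CPM with A485, at 64.2 to 147 CPM with the others and at 27.1 to 32.1 CPM in the controls. MXD1, a MYC antagonist, was at 23.9 and 29.8 CPM with A485, at 22.3 to 54.7 CPM with the others and at 2.86 to 7.88 CPM in the controls. Both thus stood above the controls in every treated library of the comparison. CDK6, a G1 kinase, was at 1519 CPM with A485 at 6 h, at 618 to 1188 CPM with the others and at 2605 and 2622 CPM in the controls. CDKN1A, which encodes the CDK inhibitor p21, was at 27.9 and 16.6 CPM with A485 and at 14.6 to 46.5 CPM with the others. SLC7A11, the cystine transporter of the ATF4 response, was at 17.4 and 19.8 CPM with A485. Its level was 12.8 to 16.6 CPM with the others at 2 h and at 4.04 to 7.82 CPM at 6 h. edgeR gave it a log2 difference of 1.02 (adjusted p = 0.19), while DESeq2 called it higher (adjusted p = 0.015), along with TENT5A, MARCKS, NR2F2, PCDH19, PRTG, TLR4, TTC9 and ZNF462.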

How the data were processed

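The 20 RNA-seq tables of the series were read; the other 12 samples (ChIP-seq and ChRO-seq) were not analysed here. The expected counts, TPM, FPKM and CPM (the normalized-count column) were deposited by the authors for 18980 coding genes. The submitters' processing notes name STAR 2.5.3a, RSEM 1.3.3 and hg38, without their roles; how libraries were selected and whether counting used strand are not given in the sources used here.

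After rounding to whole numbers, these counts went into edgeR 4.0.16 (TMM, filterByExpr, quasi-likelihood, R 4.3.3), with DESeq2 1.42.0 and limma 3.58.1 as alternatives. Fold descriptions used log2(CPM + 1). The share of reads outside coding genes was worked out from FPKM and expected counts together. The scripts were tested on simulated data. The named genes were those with the 10 largest called differences, a panel of 10, the 2 members of each list with the smallest p, and the 3 largest calls in each direction at 100 nM; genes named from the 2-fold lists, the 6 h fit and single settings were picked after their values were seen. Some genes counted here are not reported by name. The members, lists and tests were chosen with earlier results of these data known. Near-identical genes and antisense overlaps may share reads.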

Additional observations from a re-analysis of the deposited data

Results flagged for a closer look

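In 24 groups of 4 libraries (the dCBP and IHK-44 libraries of 1 time, for the 10 named histone and other called genes and 2 library measures), 3 had a library set apart from the other 3, where chance gives about 1 in 20. H4C11 was at 288 CPM with dCBP 1 uM at 2 h and at 246.0 to 250.7 CPM in the other 3 libraries. H3C15 was at 2138 CPM with dCBP 100 nM at 6 h and at 1638 to 1714 CPM in the other 3. ATP5MF was at 32.7 CPM with dCBP 1 uM at 2 h and at 28.9 to 29.2 CPM in the other 3. In each case the library lay farther from A485 than the others did.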

How the results depend on the processing

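The 30 calls of the main comparison became 109 with DESeq2, 160 with the IHK-44 libraries alone, and 0 with the dCBP libraries alone, without the time term, with all 20 libraries in the fit, or with the length offset, added after seeing the data. Leaving out 1 library gave 2 to 73 calls. The pairs at 1 uM, at 0 calls each, gave 17, 19 and 1 with DESeq2, and 0 to 21, 0 to 20 and 0 to 1 without 1 library. The time dependence, at 0, gave 29 with DESeq2, 1 with the length offset and 0 to 56 without 1 library. The 13 calls at 100 nM became 274 with DESeq2, 274 without the low-count filter, and 0 to 1066 without 1 library. The noncoding share difference was −3.89 percentage points at 1 uM alone and −4.33 to −3.84 without 1 library, with the smallest p each design allows. The cause of these changes was not tested.

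The 2-fold counts (A485 against dCBP at 2 h and 6 h, against IHK-44 at 2 h and 6 h, dCBP against IHK-44 at 2 h and 6 h, NT against DMSO at 2 h and 6 h) were 112, 315, 106, 407, 160, 115, 168 and 85 with a pseudocount of 0.1, and 322, 698, 219, 863, 324, 187, 297 and 96 at 1.5-fold. With TPM they were 2065, 369, 381, 1198, 18, 18, 12 and 3.

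Among panel genes, the sign reversed for PAX3 to −0.017 and MYOG to −0.13 with IHK-44 alone, and for MYOG to −0.038 and SOX8 to −0.035 without the time term. Without the A485 6 h library PAX3 was −0.18, FOXO1 −0.22, MYOD1 −0.10, MYOG −0.11, MYCN −0.28, MYC −0.23 and SOX8 −0.23, and the highest values without 1 library were 0.41, 1.01, 1.03, 0.32, 1.61, 2.01 and 0.53 in the same order. MYOG was −0.06 without dCBP 1 uM 6 h and −0.07 without IHK-44 1 uM 6 h. The 10 largest named differences kept their sign in all 220 alternatives run on them, and 61 of these missed the threshold. These genes had been chosen with A485 below all 4 others of the same time at both times. Leaving out a library or a compound could therefore hardly reverse a sign, so the kept signs add no support. The TPM scale, on which the clustered histone median flipped, was not among these alternatives. No paired analysis was possible because each condition has 1 library and so 1 replicate number to share; time was a covariate instead.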
